A study of Mus musculus with 2 samples.

Results

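In mouse E14.1 cells, an embryonic stem cell line, 10 genes of the ATF4 stress response were followed in 1 library with wild-type AHCY (WT) and 1 with T136A AHCY, in which an alanine replaces a threonine. They are the transcription factors Atf4, Atf5, Atf3, Ddit3, Cebpb and Cebpg, the co-regulator Nupr1, and the feedback regulators Trib3, Ppp1r15a and Ppp1r15b. All 10 were found among the 25749 Ensembl genes measured, each under 1 identifier. The genes were chosen by name, at any level, with their values in these same libraries already known, so their levels and differences are given as a description and no test is made of them. There was 1 library per genotype, so no difference has a replicate check, and "lower" or "higher" always compares these 2 libraries. The labels name no treatment and do not say how the T136A cells were made, whether they are a single clone, or on what medium or feeder layer the cells grew.

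AHCY hydrolyses S-adenosylhomocysteine, the by-product of methylation by S-adenosylmethionine, to homocysteine and adenosine. ATF4 is the main effector of the integrated stress response. Kinases that sense missing amino acids, unfolded protein in the endoplasmic reticulum (ER), heme deficiency or double-stranded RNA phosphorylate the initiation factor eIF2, which slows most translation while that of the Atf4 message increases. ATF4 is a basic leucine zipper (bZIP) protein that pairs with C/EBP proteins on composite C/EBP-ATF response elements (CAREs) and activates genes of amino acid supply together with further stress regulators. Among the induced proteins, TRIB3 closes a loop: it binds ATF4 and restrains it. The PPP1R15 proteins, of which PPP1R15A is stress-induced and PPP1R15B constitutive, guide protein phosphatase 1 (PP1) to eIF2 to remove the phosphate.

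The deposited values are RPKM, read counts scaled by exon length and sequencing depth, and imply totals of 17506154 reads in WT and 18396840 in T136A. A level of 1 RPKM or more in at least 1 library was reached by 12320 genes, with a median log2 ratio of -0.03 and 52.6% of them below 0. Log2 ratios compare T136A with WT after 1 RPKM is added to each value, and a gene is counted as lower or higher when it differs at least 2-fold on that scale. Where a pair of RPKM values is given, WT comes first. The stem cell markers Pou5f1, Sox2, Nanog, Zfp42, Esrrb and Klf4 were between 98.0 and 673 RPKM in both libraries, with 0 of 6 at least 2-fold apart. Of 8 fibroblast feeder markers 5 were found, summing to 4.43 and 7.88 RPKM in WT and T136A; their part in the results was not tested. The 2 that reached 1 RPKM had larger values in T136A, Thy1 at 2.499 and 5.32 RPKM and Pdgfrb at 1.43 and 1.97 RPKM. Postn was at 0 in WT, and the collagens Col1a1 and Col1a2 stayed at or below 0.530 RPKM in both libraries. Ahcy was at 52.9 and 56.6 RPKM, which does not check the genotype labels, since a replaced codon need not alter the amount of transcript.

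Promoter windows in the RefSeq table (build GRCm38.p6) were found for 9 genes, all but Ppp1r15b, with 2 for Atf5 and 1 for each other gene. The 250 bases before the transcription start of each window were searched on both strands for the CARE core TGATGCAA (reverse complement TTGCATCA). For Atf3 and Nupr1 this start lies inside the gene span given below. Starts outside these windows were not searched. Atf3 and Nupr1 held the core, and the other 7 did not in their windows. These 2 genes also had the largest differences between the libraries. The motifs were searched after the values were seen, and a link between the core and the size of the difference was not tested. In both, the match ran from base 110 to base 103 before the start of the window used, on the strand opposite to the gene. The core occurs in 0.791% of the 32851 windows in the table, and with any base in its sixth place (TGATGNAA) in 3.45%, which added no further member. A match is a run of letters and not evidence of binding. The full cyclic AMP response element TGACGTCA, found in 1.55% of windows, occurred in Ppp1r15a alone, 12 to 5 bases before the start. The ER stress response element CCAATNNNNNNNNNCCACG, in 0.113% of windows, was in none of the 9. Below, 60 bases around each match are shown 5′ to 3′ on the gene's strand, with the matched letters in capitals. Chac1, Herpud1 and Fgf21 are the 3 listed ATF4 targets with the lowest log2 ratios among those that hold the core, and are shown for comparison. The listed targets Pycr1, Vldlr, Aars, Got1 and Tars also hold it, with log2 ratios from -1.14 for Pycr1 to -0.22 for Got1 and 0.03 for Tars.
Atf3 (chr1:191183410-191183469, minus strand): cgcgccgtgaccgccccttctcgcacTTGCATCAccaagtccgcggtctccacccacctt
Nupr1 (chr7:126625547-126625606, minus strand): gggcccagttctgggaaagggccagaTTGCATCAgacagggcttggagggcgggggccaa
Ppp1r15a (chr7:45526269-45526328, minus strand): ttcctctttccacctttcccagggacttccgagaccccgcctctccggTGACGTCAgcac
Chac1 (chr2:119351023-119351082, plus strand): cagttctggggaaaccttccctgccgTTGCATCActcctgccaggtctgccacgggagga
Herpud1 (chr8:94386291-94386350, plus strand): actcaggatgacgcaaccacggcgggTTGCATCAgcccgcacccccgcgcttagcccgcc
Fgf21 (chr7:45615596-45615655, minus strand): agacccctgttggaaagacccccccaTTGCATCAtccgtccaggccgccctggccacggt

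All 10 genes had a lower level in T136A than in WT. On the log2 scale 7 of the 10 were at least 2-fold lower and 0 were higher; over all 12320 genes 3.10% were lower and 3.13% higher, which is given for scale only, since the members were picked with these values known. Their median log2 ratio was -1.65, with a range from -4.03 for Nupr1 to -0.57 for Cebpb. Summed over the 10 genes, the level was 625 RPKM with WT AHCY and 192 with T136A, 3.26-fold lower. Without Atf4, which made up 49.0% of the WT sum, the other 9 summed to 319 and 86.8 RPKM, 3.68-fold lower. In RNA from whole cultures, fewer cells with these transcripts and less transcript per cell cannot be told apart.

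**Figure D1:**
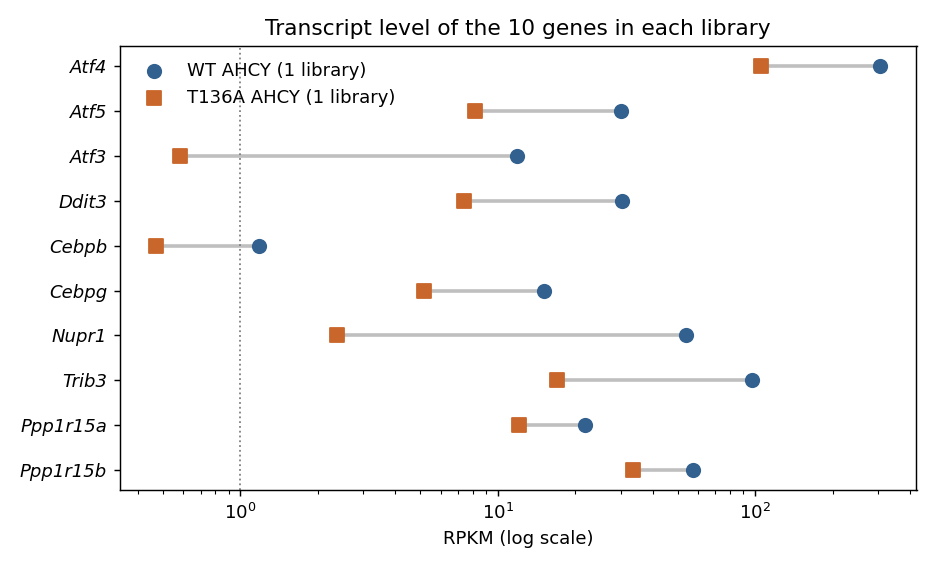
Transcript level of each gene (horizontal axis, RPKM on a log scale) in the WT library (circles) and the T136A library (squares), with a grey bar joining the pair and a dotted line at 1 RPKM. Every square lies to the left of its circle; the longest bars are those of Atf3 and Nupr1 and the shortest those of Ppp1r15a and Ppp1r15b.

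Atf4 (ENSMUSG00000042406; GRCm38 chromosome 15, 80255184 to 80257541, plus strand) was the most abundant member in both libraries, at 306 RPKM with WT AHCY and 105 with T136A. Only 1.37% of the genes at or above 1 RPKM exceeded it in WT, and 4.69% did in T136A. Whole reads, recovered from the RPKM values as 9241 and 3337, gave a fold of 2.91 with a 95% counting interval from 2.80 to 3.03. Such an interval (exact conditional binomial) reflects counting error alone: it sets 1 library against the other and says nothing of spread within a genotype. Atf4 thus remained a strongly expressed gene in T136A at 34.4% of its WT level.

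Atf5 (ENSMUSG00000038539; chromosome 7, 44812256 to 44816658, minus strand), a close relative of ATF4 with a role in the mitochondrial stress response, was at 30.2 RPKM with WT AHCY and 8.15 with T136A. The fold was 3.70, with a counting interval from 3.25 to 4.22. Ddit3 (ENSMUSG00000025408; chromosome 10, 127290774 to 127296288, plus strand) encodes CHOP, a C/EBP family protein that promotes cell death under long-lasting stress. It stood at 30.3 RPKM with WT AHCY and 7.39 with T136A, a 4.10-fold difference (3.55 to 4.75). Atf5 and Ddit3 lay next to each other in the order of levels in both libraries, and their counting intervals overlapped in each.

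Atf3 (ENSMUSG00000026628; chromosome 1, 191170296 to 191218039, minus strand), a bZIP factor that is nearly silent in resting cells and is switched on by many stresses, had 11.9 RPKM with WT AHCY and 0.580 with T136A. It was covered by 448 and 23 reads, so its 20.5-fold difference carried a wide counting interval, from 13.5 to 32.6. Of the expressed genes 35.7% stood above it in WT, and 98.4% did in T136A, where it lay under the 1 RPKM line. Nupr1 (ENSMUSG00000030717; chromosome 7, 126623249 to 126630861, minus strand), a small chromatin-associated stress protein, was at 54.0 RPKM with WT AHCY and 2.38 with T136A, from 2377 and 110 reads. The fold of 22.7 had an interval from 18.8 to 27.7, which overlaps that of Atf3. By log2 ratio Nupr1 had rank 2 and Atf3 rank 5 from the bottom of all 12320 genes.

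The C/EBP partners of ATF4 differed in level. Cebpg (ENSMUSG00000056216; chromosome 7, 35046422 to 35056573, minus strand), which lacks an activation domain of its own and forms heterodimers with ATF4, was at 15.2 RPKM with WT AHCY and 5.16 with T136A. Its fold of 2.94 (2.66 to 3.25) was close to that of Atf4, and the counting intervals of the pair overlapped. Cebpb (ENSMUSG00000056501; chromosome 2, 167688915 to 167690418, plus strand), known from inflammation and fat cell formation, was near the detection limit at 1.18 RPKM with WT AHCY and 0.470 with T136A. It rested on 31 and 13 reads, and its 2.51-fold RPKM ratio had an interval from 1.27 to 5.22. Because 1 RPKM is added to both values, its log2 ratio was only -0.57.

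The feedback regulators covered a wide range of folds. Trib3 (ENSMUSG00000032715; chromosome 2, 152337422 to 152344032, minus strand), the pseudokinase that binds ATF4, was at 97.3 RPKM with WT AHCY and 17.0 with T136A, 5.74-fold lower (5.28 to 6.24). Ppp1r15a (ENSMUSG00000040435; chromosome 7, 45522916 to 45526268, minus strand) encodes GADD34, the stress-induced partner of PP1, and was at 21.9 and 12.1 RPKM, a fold of 1.802 (1.64 to 1.99). Ppp1r15b (ENSMUSG00000046062; chromosome 1, 133131143 to 133139783, plus strand) encodes CReP, the constitutive partner, and was at 57.3 and 33.6 RPKM, a fold of 1.71 (1.64 to 1.78). The counting intervals of the inducible and the constitutive subunit overlapped, and both ended below 2.

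**Figure D2:**
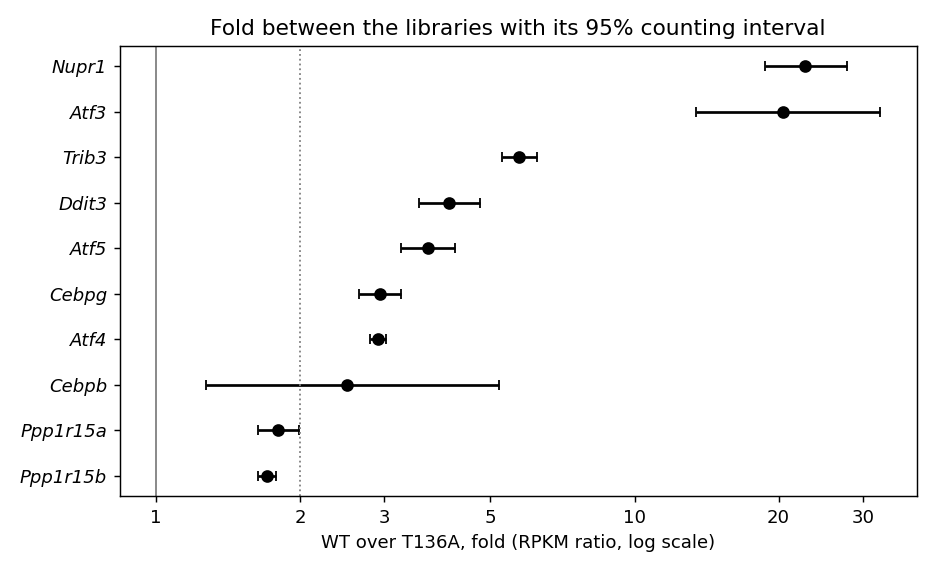
Fold between the libraries, WT RPKM over T136A RPKM (horizontal axis, log scale), for each gene in order of size; points are the RPKM ratios, bars the 95% counting intervals, the solid line marks 1 and the dotted line 2. Nupr1 and Atf3 stand apart at 22.7 and 20.5, Trib3 follows at 5.74, and the bars of Ppp1r15a and Ppp1r15b end below 2.

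The counting interval of the T136A over WT ratio lay wholly below 1 for all 10 genes and wholly below 0.5 for 7. At this depth an interval below 1 is common, and 36.9% of the 10772 expressed genes with recovered reads had one, while 2.77% had an interval below 0.5. The 7 genes were Nupr1, Atf3, Trib3, Ddit3, Atf5, Cebpg and Atf4.

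Because the folds were unequal, the order of the genes differed between the libraries. In WT the levels ran from Atf4 through Trib3, Ppp1r15b, Nupr1, Ddit3, Atf5, Ppp1r15a, Cebpg and Atf3 to Cebpb. Only Ppp1r15b and Nupr1, and Ddit3 and Atf5, had overlapping counting intervals among neighbours in that order. In T136A the order was Atf4, Ppp1r15b, Trib3, Ppp1r15a, Atf5, Ddit3, Cebpg, Nupr1, Atf3 and Cebpb, with overlap between Atf5 and Ddit3 and between Atf3 and Cebpb. Nupr1 lay above Ddit3, Atf5, Ppp1r15a and Cebpg in WT and below all 4 in T136A.

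Relative to Atf4 in the same library, some genes lost ground and others gained. Trib3 stood at 31.8% of the Atf4 RPKM in WT and 16.1% in T136A, Nupr1 at 17.6% and 2.26%, and Atf3 at 3.88% and 0.552%. Ddit3 was at 9.90% and 7.03% and Atf5 at 9.85% and 7.75%. Cebpg kept its proportion, at 4.96% and 4.91%. The phosphatase subunits took a larger proportion in T136A: Ppp1r15b was at 18.7% of Atf4 in WT and 31.9% in T136A, and Ppp1r15a at 7.15% and 11.5%. RPKM is scaled by gene length, so levels of different genes may be set side by side, although the gene models behind the lengths are those of the authors.

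**Figure D3:**
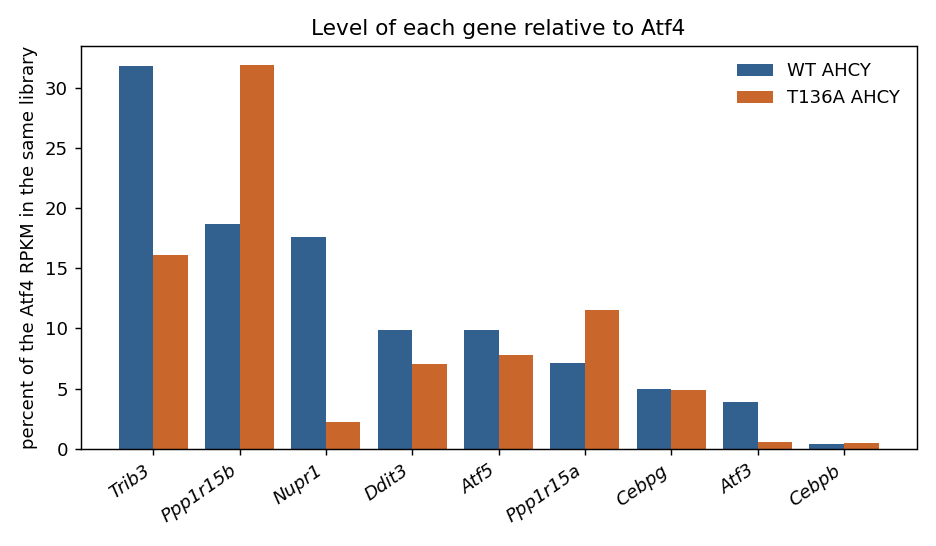
Level of the 9 other genes as a percentage of the Atf4 RPKM in the same library (vertical axis, starting at 0), with the WT library in blue and the T136A library in orange; there is 1 library per bar, so no error bar is drawn. The bar of Nupr1 drops from 17.6% to 2.26%, while that of Ppp1r15b goes up from 18.7% to 31.9%.

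Upstream of ATF4, of 10 genes for eIF2 kinases and their activators 0 were lower and 0 higher by 2-fold. Over all 12320 expressed genes 11552 were within 2-fold, so a count of 0 is common in short lists. The median log2 ratio of the 10 was 0.04. Eif2ak4, which encodes the amino acid sensor GCN2, was at 3.82 RPKM with WT AHCY and 3.25 with T136A, and Eif2ak3, which encodes the ER stress sensor PERK, at 4.49 and 4.58 RPKM. Eif2ak1, for the heme-regulated kinase, was at 8.30 and 11.0 RPKM, and Eif2ak2, for the RNA-activated kinase PKR, at 2.35 and 3.14 RPKM. The gene of this list with the lowest ratio was Dele1, which relays mitochondrial stress to the heme-regulated kinase (36.9 and 19.0 RPKM). Its log2 ratio of -0.92 was below those of Ppp1r15a (-0.80) and Ppp1r15b (-0.75). The relay protease gene Oma1 was at 14.3 and 14.7 RPKM, the GCN2 cofactor Gcn1l1 at 9.71 and 8.72 RPKM, and the GCN2 inhibitor Impact at 21.7 and 22.3 RPKM. Highest by log2 ratio was Dnajc3 (7.52 and 10.6 RPKM), an inhibitor of PERK and PKR, followed by Eif2ak1 and then Prkra (8.51 and 11.2 RPKM), an activator of PKR. Transcript levels say nothing of kinase activity or eIF2 phosphorylation.

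Among 9 eIF2 and eIF2B subunits and the related factor Eif2a, 0 were 2-fold apart and 8 lay above 0, with a median of 0.32. Eif2s1, which encodes the phosphorylated alpha subunit of eIF2, was highest, at 52.2 RPKM with WT AHCY and 82.9 with T136A, followed by Eif2s2 (56.2 and 85.2 RPKM). The catalytic subunits of PP1, to which the PPP1R15 proteins bind, were modestly lower and none by 2-fold: Ppp1ca at 480 and 368 RPKM, Ppp1cb at 26.7 and 19.1 RPKM, and Ppp1cc at 120 and 101 RPKM. Of the tribbles relatives of Trib3, Trib1 was at 0.852 and 1.497 RPKM, Trib2 at 0.145 and 0.313 RPKM, and Stk40 at 12.3 and 13.1 RPKM. None of these relatives was lower in T136A.

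Most other bZIP genes were also below 0, as were 52.6% of all expressed genes, and by less than 2-fold on the log2 scale with 1 RPKM added. By plain RPKM ratio some of them passed 2-fold, such as Creb3l1 (2.16-fold lower) and Jund (2.25-fold lower). Of 18 expressed relatives of the ATF, CREB and C/EBP families 0 were at least 2-fold lower and 0 higher, 15 were below 0, and the median was -0.16. Creb3l1 (9.04 and 4.18 RPKM), Creb3 (4.79 and 2.57 RPKM) and the ER stress sensor gene Atf6 (8.45 and 5.07 RPKM) were at the lower end. Xbp1, the factor of the IRE1 branch of the ER stress response, was at the upper end (42.8 and 55.4 RPKM), with Nfil3 (2.62 and 3.17 RPKM) and Creb3l2 (1.92 and 2.23 RPKM). In the AP-1, CNC and MAF families 2 of 12 were lower, Jdp2 (20.8 and 7.84 RPKM), a repressor that binds ATF sites, and Nfe2l1 (96.1 and 42.5 RPKM), a regulator of proteasome genes. Jund (7.71 and 3.42 RPKM) came next, Fos (0.534 and 1.57 RPKM) was highest, and Jun and Junb were within 0.04 of 0 on the log2 scale. Of these 12 genes 9 were below 0, and the list's median was -0.21.

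Transcripts for proteins that control the stability of ATF4 showed no common direction. Of the 10 genes 5 were below 0 and 5 above, 0 passed 2-fold, and the median was 0.07. Csnk1a1 (56.7 and 36.8 RPKM), a kinase gene, and Ep300 (6.37 and 4.15 RPKM), a coactivator gene, were lowest. Btrc, whose product is the ubiquitin ligase subunit that recognises phosphorylated ATF4, came next (4.23 and 3.32 RPKM). Egln3, for an oxygen-dependent prolyl hydroxylase reported to act on ATF4, was highest (5.09 and 10.9 RPKM), ahead of the ligase subunit Skp1a (140 and 268 RPKM) and Egln1 (6.61 and 10.7 RPKM).

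Known targets of ATF4 were lower with the 10 genes. In the 3 target lists together, 29 of 52 expressed genes were at least 2-fold lower and 0 higher, beside 3.10% and 3.13% of all expressed genes. Of the 52 genes 49 lay below 0, and the median was -1.06, against -0.03 over all genes. Genes of amino acid supply held 17 of the 29 lower genes among 23, with a median of -1.49. Lowest were the neutral amino acid transporter Slc1a4 (39.8 and 5.51 RPKM), the alanine transaminase Gpt2 (26.8 and 4.57 RPKM) and the cysteine-forming enzyme Cth (61.4 and 12.2 RPKM), and least lowered were Got1 (96.0 and 82.0 RPKM), Cbs (11.1 and 9.06 RPKM) and Slc43a1 (1.24 and 0.675 RPKM). Among 13 tRNA synthetase and tRNA export genes 3 were lower, Mars (162 and 64.8 RPKM), Yars (78.1 and 35.2 RPKM) and Sars (105 and 49.0 RPKM). The list's median was -0.86, and Tars (116 and 119 RPKM), Eprs (35.9 and 35.02 RPKM) and Xpot (34.7 and 30.1 RPKM) were at its upper end. In the list of stress outputs 9 of 16 were lower, with a median of -1.03. The glutathione-degrading enzyme Chac1 (104 and 3.92 RPKM) and the hormones Stc2 (34.4 and 4.02 RPKM) and Adm2 (17.3 and 1.62 RPKM) had ratios of the order of those of Nupr1, Atf3 and Trib3. Ndrg1 (0.303 and 1.29 RPKM), Map1lc3b (17.4 and 18.5 RPKM) and Vegfa (25.1 and 22.2 RPKM) were at the upper end. These lists were written with results from these libraries known and are no independent evidence of direction.

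Of 5 expressed genes in a list of CHOP-linked death and oxidation genes 0 were lower and 1 higher. Of all expressed genes 3.10% were lower and 3.13% higher. This short list leaves out the 10 members and the genes filed under the ATF4 targets, so it does not stand for all genes linked to CHOP. The higher gene was the death gene Pmaip1 (3.54 and 9.39 RPKM), while Ero1l, for an ER oxidase, was at 13.1 and 20.04 RPKM. Bcl2l11 was at 1.82 and 2.82 RPKM, the death receptor gene Tnfrsf10b at 9.92 and 8.55 RPKM, and Bbc3 at 19.8 and 17.9 RPKM. The list's median was 0.44.

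In the lists of protein folding and mitochondrial stress genes, those that differed by 2-fold or more were all higher in T136A. In the list of the ATF6 and XBP1 branches of the ER stress response, 19 genes were expressed, of which 3 were higher by 2-fold or more and 0 lower; 15 lay above 0, and the median was 0.26. The 3 were the main ER chaperone Hspa5 (41.6 and 157 RPKM), the secreted ER protein Manf (8.27 and 26.2 RPKM) and the chaperone Hsp90b1 (29.7 and 73.3 RPKM). At the lower end were Derl2 (9.67 and 6.95 RPKM), Hyou1 (30.4 and 23.4 RPKM) and Canx (136.1 and 127 RPKM). Herpud1, an ER degradation gene named after its values were seen and filed under the ATF4 stress outputs, went the opposite way to Hspa5 (25.8 and 4.43 RPKM, fold 5.82). Of 7 expressed heat shock factor targets 5 were higher and 0 lower, with a median of 1.09: Hspa8 was at 220 and 967 RPKM, Hspa1b at 1.57 and 6.73 RPKM, and Hsph1 at 20.1 and 49.0 RPKM. Hspa1b has a near-identical copy, Hspa1a, so its separate value is uncertain. Hspa4l (1.03 and 1.38 RPKM), Hsp90aa1 (978 and 1499 RPKM) and Dnajb1 (14.2 and 31.2 RPKM) formed the lower end. Of 8 mitochondrial stress genes, which ATF5 is linked to, 1 was higher, the chaperonin Hspd1 (258 and 742 RPKM), and 0 were lower. Lonp1 (44.6 and 82.8 RPKM) and Afg3l2 (25.5 and 39.2 RPKM) followed it, and Hspa9 (302 and 202 RPKM), Clpx (14.7 and 13.6 RPKM) and Clpp (85.0 and 79.7 RPKM) were lowest; the median was 0.25.

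**Figure D4:**
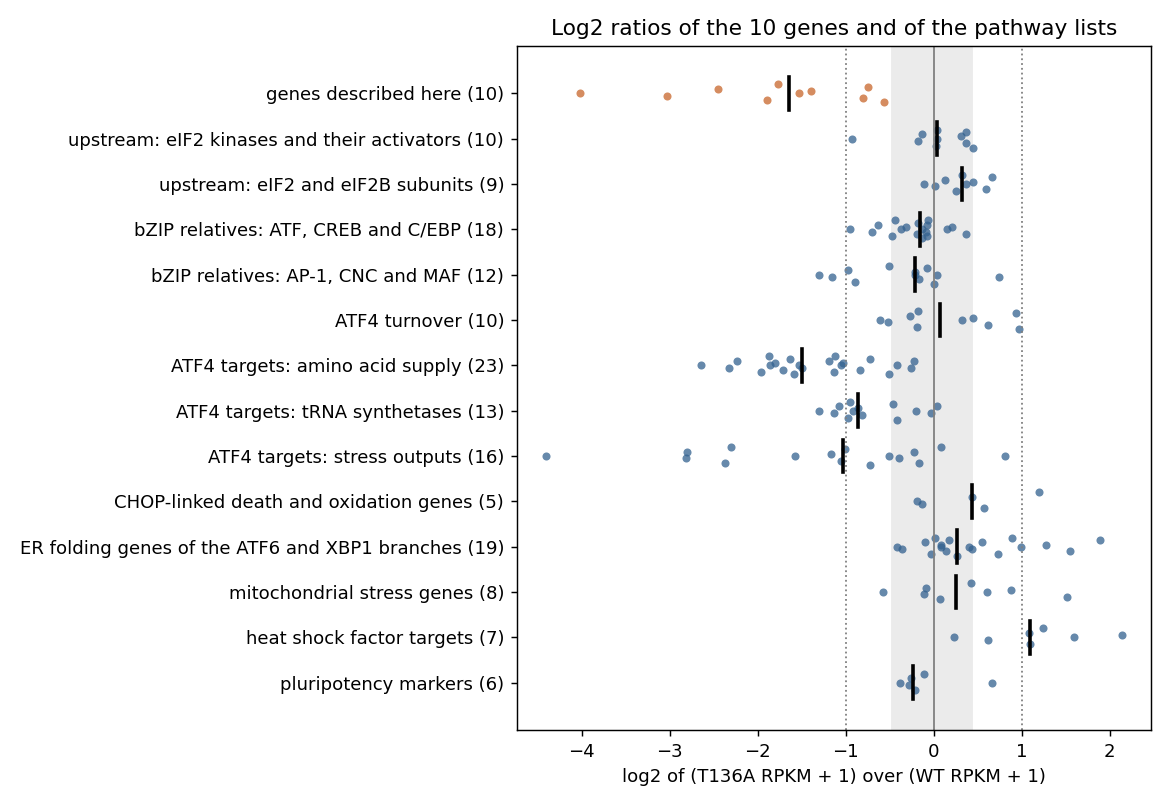
Log2 ratio of T136A over WT with 1 RPKM added (horizontal axis) for the genes described here (orange) and for each pathway list with 5 or more expressed genes (blue, members left out), 1 point per gene and a black bar at the median; the grey band holds the central 68% of all expressed genes and dotted lines mark 2-fold. The 10 genes and the 3 target lists have medians between -1.65 and -0.86, the kinase list has a median of 0.04, 8 of 9 points of the eIF2 list lie above 0, and heat shock factor targets have a median of 1.09.

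Genes beside the 10 are set here against all expressed genes, of which 3.10% were at least 2-fold lower and 3.13% higher. Of 16 expressed genes that overlap a member or are its nearest measured neighbour, 2 were at least 2-fold lower, 0 higher, and the median was -0.24. The first is Mars, the methionyl-tRNA synthetase gene, which overlaps Ddit3 on the opposite strand and which is itself an ATF4 target. The second is Gm14164, a noncoding transcript 1637 bases from Trib3 on the opposite strand (3.94 and 0.653 RPKM). The gene to the left of Atf3, Batf3, encodes another bZIP factor and was at 3.51 and 1.43 RPKM. Next to Atf4, Mief1 was at 11.3 and 9.51 RPKM and Rps19bp1 at 94.3 and 70.2 RPKM, and Nup62, which overlaps Atf5 on the opposite strand, was at 71.1 and 58.2 RPKM. Beside the other members, Vrk3 (2.96 and 5.69 RPKM), Tbc1d17 (4.93 and 4.02), Arhgap9 (4.71 and 3.62), Pepd (13.1 and 20.8), Apobr (1.57 and 1.44), Rbck1 (14.1 and 16.6), Tulp2 (4.61 and 2.90), Nucb1 (9.18 and 10.02), Pik3c2b (1.95 and 3.45) and Tmem189 (8.82 and 9.32) had levels within 2-fold on the log2 scale.

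Overlap matters for the values because no strand rule is stated, so reads from Ddit3 and Mars, Atf5 and Nup62, Ppp1r15a and Tulp2, or Cebpb and Tmem189 cannot be told apart where the genes share bases. A search of annotated transcripts for stretches of at least 100 bases with 90% identity found no other gene for 7 of the 10. Cebpb matched 320 bases of Tmem189 and Ppp1r15b 640 bases of Gm26616, both on the opposite strand at the same place. Stretches of up to 170 bases of Cebpg matched 22 other genes, so a small part of its reads may be shared.

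Upstream start codons, which let several of these messages be translated when eIF2 is phosphorylated, were counted in the annotated leader of the transcript with the longest coding sequence. As a description with no test, 8 of the 10 genes had at least 1 upstream ATG, all but Cebpb and Trib3, compared with 47.9% of 10905 expressed coding genes. Atf4 had 3, of which 1 opened a frame that overlaps the coding start, the arrangement behind its known translational control. Atf5 had 2 with the same kind of overlap, Ppp1r15a had 7, Ppp1r15b 3, Ddit3 2, and Atf3, Cebpg and Nupr1 had 1 each. An overlapping frame was present in 3 of the 10 and in 15.2% of expressed coding genes. The leaders of the 10 were longer, with a median of 273 bases against 164 over the expressed coding genes. The part of leader length in these shares was not tested. Protein output was not measured, and RPKM values do not show it.

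The CARE core shown above was also looked up across the expressed genes with a promoter window, members left out. Of 55 genes that held it, 9 (16.4%) were at least 2-fold lower in T136A and 1 (1.82%) higher, with a median log2 ratio of -0.26. Of the 8840 without it 2.74% were lower and 2.58% higher, with a median of -0.03. The 9 were Chac1, Herpud1, Fgf21, Inhbe, Gadd45g, Cnpy2, Jdp2, Pycr1 and Vldlr; Fgf21 was listed at 0 in T136A. Most genes with the core, 45 of 55, were thus within 2-fold. For TGACGTCA, the element in the Ppp1r15a window, 289 genes held it and 1.73% of them were lower, with a median of -0.07. The ER stress response element was present in 18 expressed genes, of which 0 were lower and 6 higher, with a median of 0.61. Hspa5 and Hsp90b1 were among the 6, as were Zfp57 and the near-identical copies Xlr3a, Xlr3b and Xlr3c. The genes named in this paragraph outside the fixed lists were chosen after their values were seen.

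Over only 2 libraries, likeness to Atf4 reduces to a like log2 ratio. The 5 genes nearest to its -1.53, among those reaching 5 RPKM, were Madcam1 (9.79 and 2.73 RPKM), Pold4 (15.5 and 4.72), the arginine transporter gene Slc7a1 (27.0 and 8.71), the glucose-regulated gene Txnip (220 and 75.8) and 1700019D03Rik (12.3 and 3.58). All 5 lay within 0.01 of the Atf4 ratio.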

How the data were processed

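RNA was measured in 1 WT and 1 T136A library of E14.1 cells; per the labels' protocols, total RNA was taken into Trizol and libraries were made with a TruSeq RNA kit. The authors deposited 1 value per Ensembl gene, read here as RPKM from the values themselves: with GENCODE M21 exon lengths and 1 constant per library, 89.9% of positive values in WT and 90.0% in T136A were whole reads within 0.01. Per the submitters' processing notes, CASAVA 1.8 and mm9 were used, with no role given; which aligner and counter made the values is not given in the sources used here. All coordinates printed are GRCm38. For Atf4 the annotated length of 2358 bases gave no whole reads, so the pair of reads was found from the ratio of its RPKM values. A ratio fixes the pair only up to a whole multiple. The pair whose implied length, 1724 bases, lay nearest the annotated length was taken. On 1086 genes whose annotated length gave whole reads, this step found the right pair for 99.6%. That check does not cover a gene whose annotated length fails, so the reads and counting interval of Atf4 rest on this choice.

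Symbols matched 25696 of 25749 identifiers; 9 rows that shared a symbol with a higher row were left out. The log2 ratio used 1 RPKM added and a minimum of 1 RPKM in at least 1 library. Fold intervals are exact conditional binomial (Clopper-Pearson, 95%) and level intervals exact Poisson (scipy 1.17.1). They cover counting error only. Steps were tested on simulated data, and blastn 2.17.0 found shared stretches.

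The members and the 16 gene lists were chosen with earlier results of these data known, and the promoter motifs and start codon counts after the values were seen. Named genes were all members, up to 3 list genes at each end of the log2 ratio, every eIF2 kinase-list, PP1 and tribbles gene, genome neighbours, and the 5 genes nearest to Atf4. Promoter windows were matched by symbol for 8895 expressed genes besides the members.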

Additional observations from a re-analysis of the deposited data

How the results depend on the processing

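All 10 genes stayed lower in T136A under every scaling, added constant and read-based value run on them. The number at least 2-fold lower ran from 6 with 5 RPKM added to 8 with 0.1 RPKM added or with recovered reads. At a 1.5-fold threshold 9 were lower, and 0 were higher in every setting. Cebpb passed 2-fold with 0.1 RPKM added (-1.16) and with recovered reads (-1.29), and Cebpg no longer did with 5 RPKM added (-0.99). Counts over all genes moved: 727 lower and 723 higher with 0.1 RPKM added, 114 and 101 with 5 RPKM added, 1388 and 1282 at 1.5-fold, 702 and 685 from recovered reads, and 209 higher with a minimum of 5 RPKM. The other scalings shifted the median of all genes by at most 0.05. Of 192 other values, 178 stayed within their limits and 14, all log2 ratios of members, moved. Staying within the limits does not mean a small change: the log2 ratio of Cebpb, counted among the 178, ran from -1.29 to -0.18 over the settings. No paired analysis was possible because each genotype has 1 library. Depth limits Cebpb and Atf3, with 13 and 23 reads in T136A.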
